A study of Mus musculus with 9 samples.

Results

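The small leucine-rich proteoglycans (SLRPs) are secreted proteins of the extracellular matrix, built from a chain of leucine-rich repeats. By name, and with earlier results of these data known, 10 of their genes were chosen: Dcn, Lum, Bgn, Fmod, Ogn, Aspn, Prelp, Omd, Kera and Epyc. A member was read from the transcript cluster that the array's annotation gives its symbol alone, selected on the highest mean over the arrays where a symbol had several. This found 9 of the 10 genes among the 19698 genes tested, 0 of them with more than 1 cluster, and Aspn was not analysed here. The samples were 3T3 fibroblasts, mouse embryonic cells grown as an immortal line, and 9 of them were hybridised to Affymetrix whole-transcript arrays, 3 in each of 3 groups. The first group, BAFkd_st, was fibroblasts with stable knockdown of Brg1 and Brm, the motor ATPases of the BAF complex, which moves nucleosomes, exposed for 1 h to mouse TNF-α (5 ng per ml). The second, control_st, was control fibroblasts with the same TNF treatment, and the third, control_ns, was unstimulated control fibroblasts. The knockdown used 1 short hairpin RNA against a sequence that both ATPase transcripts share, driven by the mouse U6 promoter of a retroviral vector that also carries GFP, in cells sorted for high GFP. Nothing read here names a vector in the control cells, and unstimulated knockdown cells were not analysed here. The samples are therefore whole cultures of 1 cell line and 1 hairpin.

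SLRPs share a core of leucine-rich repeats, and most carry glycosaminoglycan chains. Decorin, biglycan and asporin form class I, of which decorin and biglycan carry chondroitin or dermatan sulphate chains. Fibromodulin, lumican, keratocan, PRELP and osteomodulin form class II, several of which carry keratan sulphate. Osteoglycin (also called mimecan) and epiphycan belong to class III. In connective tissue these proteins bind collagen fibrils and help set their diameter, and several also bind growth factors such as TGF-β. The genes lie in clusters. In the reference gene order Dcn, Lum, Kera and Epyc follow one another on chromosome 10, Aspn, Omd and Ogn on chromosome 13, and Prelp and Fmod on chromosome 1, with Bgn alone on chromosome X.

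The promoters of Ogn and Omd, neighbours on chromosome 13 whose levels moved together among the control arrays, are printed here with that of Bgn, whose level varied little. Each is the 250 bases before the transcription start in RefSeq (GRCm38.p6), 5′ to 3′ on the gene's strand, with CpG dinucleotides in capitals.
Ogn, chr13:49607765-49608014, plus strand: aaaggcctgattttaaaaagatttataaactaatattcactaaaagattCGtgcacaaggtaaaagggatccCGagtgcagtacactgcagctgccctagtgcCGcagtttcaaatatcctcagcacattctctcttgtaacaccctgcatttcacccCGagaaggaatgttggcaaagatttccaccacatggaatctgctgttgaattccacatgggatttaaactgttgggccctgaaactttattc
Omd, chr13:49582212-49582461, plus strand: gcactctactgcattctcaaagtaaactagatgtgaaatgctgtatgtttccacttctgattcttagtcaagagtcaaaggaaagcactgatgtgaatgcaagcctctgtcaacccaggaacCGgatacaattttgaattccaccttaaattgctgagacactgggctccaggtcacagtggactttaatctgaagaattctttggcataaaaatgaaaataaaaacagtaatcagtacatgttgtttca
Bgn, chrX:73483351-73483600, plus strand: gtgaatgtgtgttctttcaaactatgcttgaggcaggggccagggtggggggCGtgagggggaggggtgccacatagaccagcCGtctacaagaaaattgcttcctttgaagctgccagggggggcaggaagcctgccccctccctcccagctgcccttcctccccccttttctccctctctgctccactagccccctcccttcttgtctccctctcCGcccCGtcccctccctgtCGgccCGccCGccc
The Ogn window held 4 CpGs at a GC content of 42%, the Omd window 1 CpG at 38.4%, and the Bgn window 7 CpGs at 64.4%. The CpG content was 0.367 of that expected from the base composition in the Ogn window, 0.109 in the Omd window and 0.28 in the Bgn window. Of the 10 members, 8 matched the sequence table, with 9 promoter windows. Dcn and Lum had no promoter there, so no statement on promoters or motifs here covers them. Of the 9 windows, 0 passed a GC content above 50% together with an observed to expected CpG ratio above 0.6. By comparison, 30.8% of all 32851 promoters of the same length passed. CpG-poor promoters of this kind are common among genes restricted to certain cell types.

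The Ogn and Omd windows shared the 11-base run TTGAATTCCAC on the same strand, starting 47 bases before the start of Ogn and 117 bases before that of Omd. This run occurred in 4 of all promoters, or 0.0122%. It was not the longest among the members. Runs of 12 bases were shared by Epyc and Aspn (also in 4 of all promoters), by Kera and Epyc, and by Prelp and Bgn. A run of this length was therefore not particular to Ogn and Omd. On either strand, the TATA motif TATAAA was found in 2 of the 9 windows, those of Ogn and Aspn, against 12.4% of all promoters, and the match in Ogn lay 227 bases before the start. The TEAD motif GGAATG was found in 2 windows, those of Ogn and of the second Epyc start, against 12.6% of all promoters, and the Runx motif TGTGGT in the Ogn window alone, against 14%. None of the 9 windows held the AP-1 motif TGANTCA (6.75% of all promoters), the kB motif (7.25%) or the CArG box (1.47%). Except for TATA, whose letters overlap their own reverse complement in Ogn, the matches in the Ogn window did not overlap. These are matches of letters only, with no measurement of binding.

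Smarca4, which encodes Brg1, was read first because it is a target of the hairpin. It lay at 10.50, 10.64 and 10.25 log2 units in BAFkd_st (arrays 1, 2 and 3), against 11.62, 11.53 and 11.56 in control_st and 11.66, 11.56 and 11.63 in control_ns. All 3 knockdown arrays lay below all 6 control arrays, and the difference from control_st was -1.11 ± 0.09 (SE), or 2.15-fold lower (limma adjusted p = 0.00362). Smarca2, which encodes Brm, averaged 9.21 ± 0.15 in BAFkd_st, 9.57 ± 0.22 in control_st and 9.45 ± 0.43 in control_ns (SD, n = 3 each). Its difference of -0.36 ± 0.20 (SE) from control_st did not pass the limma test (adjusted p = 0.734, and 0.129 with a replicate block). All 3 knockdown arrays lay below every control_st array, but not below every control_ns array. The paper measured both transcripts by quantitative RT-PCR and reported both as reduced. The array medians over all transcript clusters ran from 7.77 to 7.83, and with no read depth on an array the precision depends on how many arrays there are. The fibroblast markers Vim, an intermediate filament, and Col1a1, a collagen chain, averaged 13.98 and 12.47 in BAFkd_st, 13.98 and 12.61 in control_st, and 13.98 and 12.82 in control_ns. Fap, a protease of activated fibroblasts, averaged 4.87, 4.82 and 4.81 in these groups, below the first quartile of every array.

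Arrays of the 3 groups carry the same replicate numbers, and the study's methods place replicates on separate days. Each difference was therefore also fitted with the number as a block. In the comparison of BAF knockdown with control cells, both TNF-treated, 0 of the 9 members were called at an adjusted p under 0.05 without the block, where limma called 0.0355% of all genes higher and 0.102% lower. By the same tool, 2 members had an unadjusted p under 0.05 (Dcn and Bgn), as did 1661 of all genes. With the block, 1 member was called lower and 0 higher, against 2.33% and 0.98% of all genes. That member was Dcn. The median difference of the 9 members was -0.13, beside 0.01 for all genes, with 7 members below 0 and 2 (Ogn and Epyc) above.

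Dcn encodes decorin, which binds collagen fibrils and TGF-β. Its level was 10.28, 11.09 and 8.86 log2 units in BAFkd_st, against 12.28, 12.84 and 11.50 in control_st and 12.20, 12.83 and 11.40 in control_ns. Every knockdown array lay below every control array, and within each group array 2 was the highest and array 3 the lowest. The means were 10.08 ± 1.13 in BAFkd_st, 12.20 ± 0.67 in control_st and 12.14 ± 0.71 in control_ns (SD, n = 3 each). The knockdown difference was -2.13 ± 0.59 (SE), or 4.36-fold lower, with a 95% interval of -3.46 to -0.79 (adjusted p = 0.256). With the block the interval was -2.49 to -1.76 (adjusted p = 0.00101). Array by array of the same number, Dcn was 3.99-fold, 3.35-fold and 6.21-fold lower in knockdown than in control cells for numbers 1, 2 and 3. The direction was the same in each of the 3 numbers.

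The call for Dcn depended on the block and on the arrays of number 1. Without all arrays of number 1 the blocked difference was -2.19 (adjusted p = 0.142), and 0 genes at all were called in that fit. Without number 2 it was -2.32 (adjusted p = 0.00399), and without number 3 it was -1.87 (adjusted p = 0.0101). Without the block, leaving out BAFkd_st array 3 gave -1.52, the smallest difference, and leaving out BAFkd_st array 2 gave -2.63, the largest (adjusted p between 0.0949 and 0.589 over the 9 arrays left out). Each array measured a whole culture, so fewer cells that express Dcn and less Dcn transcript per cell cannot be told apart.

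**Figure D1:**
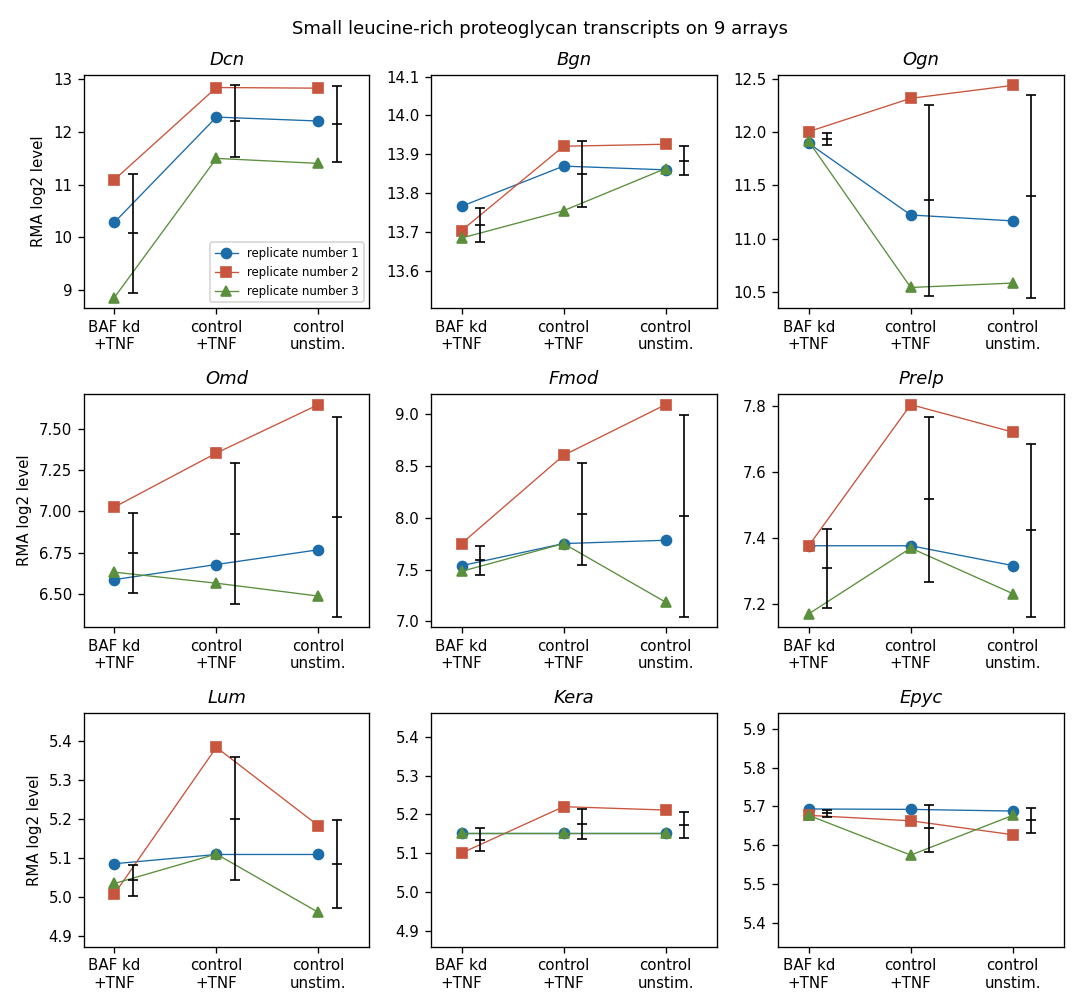
Level of the 9 measured SLRP transcripts in RMA log2 units (y axis, scaled gene by gene) in BAFkd_st, control_st and control_ns (x axis), 1 point per array, with lines joining arrays of the same replicate number and bars for the mean ± SD of 3 arrays. Dcn sits between 8.86 and 11.09 in knockdown arrays and above 11.3 in all control arrays, and Ogn spans 0.11 in BAFkd_st but 1.77 in control_st and 1.85 in control_ns.

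Bgn encodes biglycan, the closest relative of decorin, which also signals through Toll-like receptors when released from the matrix. It lay at 13.77, 13.70 and 13.68 in BAFkd_st, against 13.87, 13.92 and 13.76 in control_st and 13.86, 13.93 and 13.86 in control_ns. The highest knockdown array passed the lowest control_st array by a narrow margin, and none reached the control_ns arrays. The difference from control_st was -0.13 ± 0.05 (SE), with an adjusted p of 0.561, and 0.324 with the block. Bgn was lower in knockdown by 0.10, 0.22 and 0.07 in numbers 1, 2 and 3, so the direction held in each pair while the test over all genes was not passed.

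Ogn encodes osteoglycin, a class III SLRP of bone, tendon and other connective tissue. It lay at 11.89, 12.00 and 11.91 in BAFkd_st, against 11.22, 12.32 and 10.54 in control_st and 11.17, 12.44 and 10.59 in control_ns. The 3 knockdown arrays fell within 0.11 of each other and inside the range of the control arrays, whose spread was 1.77 in control_st and 1.85 in control_ns. The mean difference was 0.58 ± 0.51 (SE; 95% interval -0.59 to 1.74; adjusted p = 0.875, and 0.497 with the block). It was 0.67 higher in knockdown in number 1, lower in number 2 (-0.31) and 1.37 higher in number 3. Without all arrays of number 2, the blocked difference was 1.02 (adjusted p = 0.0396), so the call for Ogn rested on whether number 2 was in the fit.

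Omd encodes osteomodulin, a keratan sulphate proteoglycan of mineralised matrix, and is the neighbour of Ogn. Its level was 6.59, 7.03 and 6.63 in BAFkd_st, against 6.68, 7.35 and 6.57 in control_st and 6.77, 7.64 and 6.49 in control_ns. The groups overlapped, array 2 was the highest in each, and the difference was -0.12 ± 0.31 (SE; adjusted p = 0.969).

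Fmod encodes fibromodulin, a collagen-binding class II SLRP. It lay at 7.54, 7.75 and 7.48 in BAFkd_st, against 7.75, 8.60 and 7.75 in control_st and 7.78, 9.09 and 7.19 in control_ns. Again array 2 was the highest of each group, the groups overlapped, and the difference was -0.44 ± 0.43 (SE; adjusted p = 0.892, and 0.569 with the block). Prelp, its neighbour on chromosome 1, encodes a class II member that binds collagen and heparan sulphate. It lay at 7.38, 7.38 and 7.17 in BAFkd_st, against 7.38, 7.80 and 7.37 in control_st and 7.32, 7.72 and 7.23 in control_ns. Only the control arrays of number 2 passed 7.5, and the difference was -0.21 ± 0.15 (SE; adjusted p = 0.839, and 0.329 with the block).

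Lum, Kera and Epyc, which follow Dcn on chromosome 10, had levels below the first quartile of every array, which ran from 6.59 to 6.67 over the genes tested. Values this low may lie near background, and detection was not tested. Lum encodes lumican, a class II SLRP of cornea and skin. It lay at 5.09, 5.01 and 5.03 in BAFkd_st, against 5.11, 5.38 and 5.11 in control_st and 5.11, 5.18 and 4.96 in control_ns. The knockdown arrays lay just below those of control_st, by -0.16 ± 0.09 (SE; adjusted p = 0.724), and within the range of control_ns. Kera, for the corneal keratocan, held exactly the same value on 6 of the 9 arrays. Epyc, for the cartilage protein epiphycan, ran from 5.57 to 5.69 over the 9 arrays. Their knockdown differences were -0.04 ± 0.04 and 0.04 ± 0.05 (SE), so neither showed a rise, and at such levels a fall might not be seen. Fmod, Prelp and Epyc each held 1 value on 3 arrays.

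Counted without a test, 2 members (Dcn and Lum) had all BAFkd_st arrays below all control_st arrays and 0 had all above, where 5.47% and 4.63% of all genes did. Beyond a difference of 0.3, the size the study's methods use for BAF, 2 members were lower (Dcn and Fmod) and 1 was higher (Ogn), against 3.27% and 1.87% of all genes. The methods state a test of replicate arrays for TNF-induced genes only. Applied here to the knockdown together with the 0.3 minimum, it found Dcn alone, unadjusted, and after Benjamini-Hochberg adjustment its p was 0.894. The differences of the other 8 members from control_st did not pass the limma test adjusted over all genes, without or with the block. Before adjustment, Bgn had a limma p of 0.0421, and of 0.0377 with the block. Prelp had 0.208, and 0.0388 with the block.

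**Figure D2:**
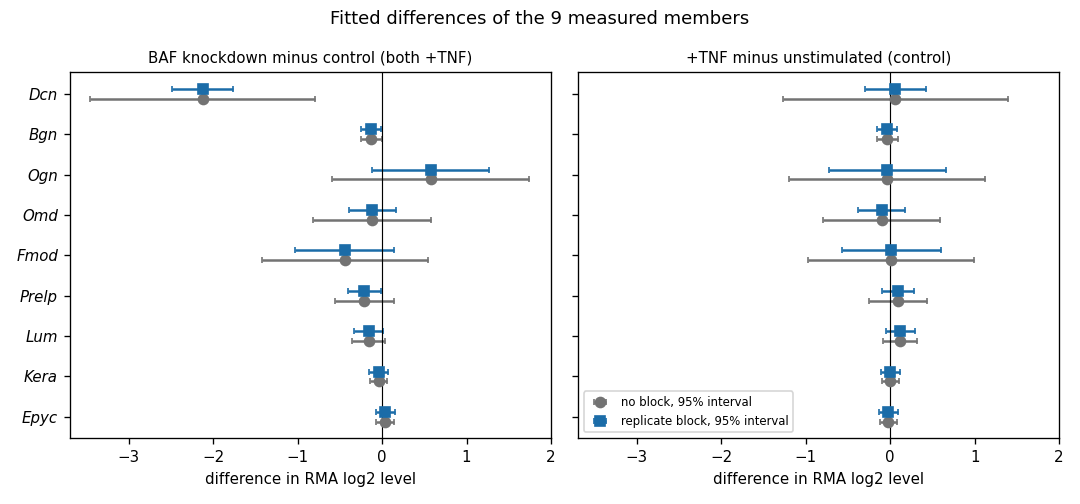
Fitted difference in RMA log2 level (x axis) of each member (y axis) for BAF knockdown minus control, both TNF-treated (left), and TNF-treated minus unstimulated control (right), with 95% intervals from the fit with the replicate block (squares) and without it (circles). For Dcn the knockdown interval runs from -3.46 to -0.79 without the block and from -2.49 to -1.76 with it, whereas its TNF interval includes 0 in both fits.

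The early response to TNF, which activates NF-kB within minutes, was read from control_st against control_ns. For the 9 members the median difference was 0.00, 5 lay above 0 and 4 below, and the largest difference in either direction was 0.12 (Lum, adjusted p = 1). Limma called 0 members in either direction, without or with the block, and 0 members had an unadjusted p under 0.05, beside 605 of all genes. Of all genes, 0.137% were called higher and 0% lower without the block, and 0.366% higher and 0.0305% lower with it. No member had groups that did not overlap, against 3.19% of all genes with control_st above and 2.78% with control_st below.

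The width of the intervals sets what these arrays could show for TNF. For Dcn the difference was 0.06 with a 95% interval of -1.27 to 1.40, and of -0.30 to 0.42 with the block. For Bgn it was -0.03, with an interval of -0.16 to 0.09. Ogn had a difference of -0.04 and an interval of -1.20 to 1.13 without the block. That interval did not exclude a change of about 1 log2 unit in Ogn, and the test adjusted over all genes was stricter. The intervals were narrowest for Bgn, Kera and Epyc. Kera and Epyc lay below the first quartile of every array, so their narrow intervals do not speak to a fall after TNF.

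Knockdown cells with TNF were also set against unstimulated control cells, a comparison in which knockdown and TNF differ together and which shares its knockdown arrays with the one above. Dcn was lower by a difference of -2.06 (adjusted p = 0.178, and 0.00053 with the block), and Bgn by -0.16 (adjusted p = 0.257, and 0.135 with the block). Without the block 0 members were called, where 0.518% of all genes were called higher and 0.599% lower. With it 0 were called higher and 1 lower (Dcn), against 1.98% and 3.36% of all genes.

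A second pattern ran through the control cells. Array 2 held the highest value and array 3 the lowest, with array 1 between, for 6 members in control_ns and 5 in control_st, of 9, while 20.3% and 20.6% of all genes had that order. In BAFkd_st 2 members (Dcn and Fmod) had it, against 15.7% of all genes. This order was picked from the same member values, so the counts describe it and do not test it. The control groups share their replicate numbers, so their counts are not independent of each other. Over the 6 control arrays, a limma F test of the replicate number, added after the values had been seen, called 5 members (Dcn, Ogn, Fmod, Omd and Prelp) at an adjusted p under 0.05, where 11.4% of all genes were called.

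Ogn showed the largest difference between numbers, with control means of 12.38 for number 2 and 10.56 for number 3, a 3.51-fold difference (adjusted p = 0.00278). Number 1 lay between them at 11.20. For Dcn the control means were 12.83 for number 2, 12.24 for number 1 and 11.45 for number 3, a 2.61-fold difference between 2 and 3 (adjusted p = 0.00352). The same difference was 1.38 log2 units in Fmod (adjusted p = 0.0402), 0.97 in Omd (adjusted p = 0.0125) and 0.46 in Prelp (adjusted p = 0.0140). Bgn differed by 0.11 (adjusted p = 0.401), Lum by 0.25 (adjusted p = 0.118), Kera by 0.06 and Epyc by 0.02. Of the 6 members whose mean level over the arrays lay above their first quartiles, Bgn alone kept nearly the same level in the 3 numbers. Fmod, Omd and Prelp had mean levels of 7.88, 6.86 and 7.42, below that of the median gene, and their detection was not tested.

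This test had few arrays behind it. When any 1 of the 6 control arrays was left out, 1 residual degree of freedom remained and 0 members and 0 of all genes were called, with an adjusted p for Ogn between 0.0789 and 0.0982. Over all 9 arrays, 2 members were called (Dcn and Omd). The labels do not say what the numbers share beyond a number, and which feature of the cultures or arrays moved with them was not tested.

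**Figure D3:**
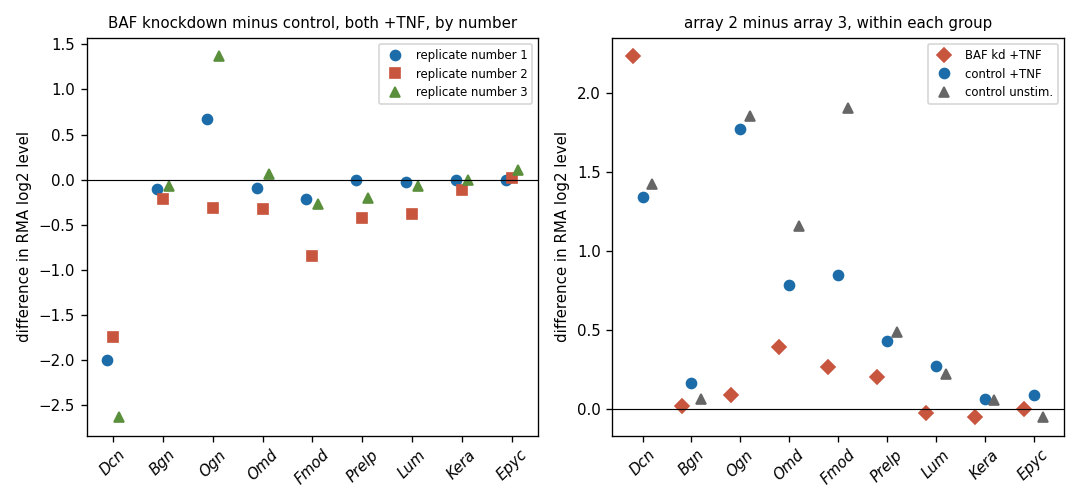
Differences in RMA log2 level (y axis) of each member (x axis), BAF knockdown minus control of the same replicate number, both TNF-treated (left), and array 2 minus array 3 within each group (right), 1 point per pair of arrays. Ogn differs by 1.85 in control_ns and 1.77 in control_st between arrays 2 and 3 but by 0.09 in BAFkd_st, whereas Dcn differs by 2.23 in BAFkd_st.

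In knockdown cells the difference between arrays 2 and 3 was 0.09 for Ogn, 2.23 for Dcn, 0.27 for Fmod, 0.39 for Omd and 0.21 for Prelp. Whether the knockdown difference depended on the number was tested as an interaction, likewise added after the values had been seen. It used all 9 arrays with 2 residual degrees of freedom. Each number had 1 knockdown array, which the fit matched exactly, so the residual spread came from the control arrays alone. The test therefore held no measure of the spread between knockdown cultures. Ogn was the 1 member called (adjusted p = 0.0415), where 0.0914% of all genes were called, and Dcn had an adjusted p of 0.0815. Leaving out any 1 control array left 0 members and 0 of all genes called (adjusted p for Ogn between 0.229 and 0.461). With each array centred on its median Dcn was called as well (adjusted p = 0.0474).

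Pairs of members were described by Pearson's r over arrays, which share their groups and their normalization. The 6 control arrays hold each replicate number in both groups, with similar values of Dcn and of Ogn, so they are not 6 independent points. Over them r was 0.96 between Dcn and Ogn and 0.97 between Ogn and Omd. It was 0.98 between Fmod and Omd and 0.93 between Fmod and Prelp. In some other pairs r was lower, at 0.80 between Dcn and Bgn and 0.46 between Lum and Bgn. Over all 9 arrays it was 0.03 between Dcn and Ogn, since Ogn stayed near 12 in the knockdown arrays where Dcn was low. It was 0.95 between Fmod and Omd and 0.92 between Fmod and Prelp over all 9 arrays, and 0.86 between Dcn and Bgn. The 6 other genes most like Dcn over the 9 arrays were Has2 (r = 0.995), a hyaluronan synthase, P3h4 (0.992), a collagen-modifying chaperone, Serinc5 (0.990), the metalloproteinase gene Mmp19 (0.986), Tgfbi (0.985), for an adhesion protein of the matrix, and Pisd (0.983), for a phospholipid enzyme. Since they were selected on their likeness to Dcn over these arrays, knockdown arrays included, their own knockdown differences are not given as a result.

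The genes next to the members were read in the same fits. On chromosome 10, Btg1, beyond an unmeasured neighbour of Dcn, differed by -0.16 (adjusted p = 0.571) and Atp2b1, beyond Epyc and Ccer1, by -0.12 (adjusted p = 0.839). On chromosome 13, Cenpp, for a centromere protein, was 0.46 higher in knockdown (adjusted p = 0.147, and 0.0425 with the block), and Nol8 and Iars, beside Ogn, had differences of 0.23 and 0.14 that did not pass the test. On chromosome 1, Btg2, next to Fmod, was 1.45 higher after TNF, while its knockdown difference was 0.05. On chromosome X, Haus7, next to Bgn, was 0.36 higher in knockdown (adjusted p = 0.185, and 0.0158 with the block).

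The genes that build, bind and cut SLRPs were then counted in the same fits. Without the block 2 genes of these lists were called in the knockdown comparison, both lower: Col12a1, a collagen that sits on fibril surfaces (-1.03, adjusted p = 0.0036), and Vcan, for the large proteoglycan versican (-0.61, adjusted p = 0.0072). All genes that the block added were lower too, where 2.33% of all genes were called lower with it. Without all arrays of number 1, the blocked fit called 0 genes of any list, as it called 0 of all genes. Across the same lists limma called 0 genes after TNF, without or with the block. The methods' test called Tlr2, Chst2 and Adamts4 after TNF. Tlr2 was also called with array weights and with only those groups in the fit, and Chst2 with the block without number 2 (0.68, adjusted p = 0.0336).

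Of 26 genes for the linker and for chondroitin or dermatan sulphate chains, the chains of decorin and biglycan, 5 were called lower with the block and 0 without. These were Csgalnact1, which starts chondroitin chains (-0.67, blocked adjusted p = 0.0141), Ust, a uronyl sulphotransferase (-0.36), Chpf, a chain polymerising factor (-0.33), Dsel, related to dermatan sulphate epimerase (-0.33), and Papss1, which makes the sulphate donor (-0.27, named beyond the naming rule, after its value was seen). Of these 5, Csgalnact1 and Ust were called with the block without number 2 and 0 without number 3. The list's median difference was -0.10, beside 0.01 for all genes, with 8 genes above 0. Of 9 genes of keratan sulphate synthesis 0 were called in either fit, with a median of -0.03, and the galactosyltransferase B4galt1 differed by -0.22 (adjusted p = 0.639).

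Of the 19 fibrillar collagens and fibril partners measured, 4 were called lower with the block, namely Col12a1, Col3a1 (-0.93, blocked adjusted p = 0.0035), Col6a3 (-0.76) and Col6a1 (-0.32). Without number 2 the block called Col12a1 and Col3a1, and without number 3 these and Col6a3. The median of that list was -0.09. Of 24 ligands and receptors bound by SLRPs, 3 were called lower with the block: Tlr4, a Toll-like receptor that biglycan engages (-0.60, blocked adjusted p = 0.0039), Tgfbr1, a TGF-β receptor (-0.46), and P2rx7, an ATP-gated channel (-0.38). The same 3 genes and Igf1r, for an insulin-like growth factor receptor (0.42, higher, and named after its value was seen), were called without number 2, and 0 without number 3. The list's median was 0.02 and 13 of its genes lay above 0. Tlr2, another Toll-like receptor, differed by 0.99 between TNF-treated and unstimulated control cells (adjusted p = 0.101).

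Of 14 proteases that cut SLRPs, 3 were called lower with the block, Bmp1, which removes the propeptides of SLRPs and collagens (-0.54, blocked adjusted p = 0.0034), Adamts5, an aggrecanase (-0.48), and the membrane metalloproteinase Mmp14 (-0.41), with a list median of -0.16. Bmp1 and Adamts5 were called without number 2 and 0 without number 3. Of 16 aggregating and other matrix proteoglycans, 2 were called lower with the block, Vcan and Agrn, for agrin (-0.33), with a median of 0.03, and Vcan alone was called without number 2 or without number 3. Of the 6 other SLRPs and close relatives measured, 0 were called in either fit, with a median of -0.00, and opticin, Optc, which lies next to Prelp, had the largest difference (-0.23, adjusted p = 0.439). By replicate number in the control arrays, 8 of the 14 proteases, 7 of the 24 ligands and receptors, 4 of the 19 collagens, 4 of the 26 linker and chain genes, 1 of the 9 keratan sulphate genes, 1 of the 16 matrix proteoglycans and 0 of the 6 other SLRPs were called, beside 11.4% of all genes.

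**Figure D4:**
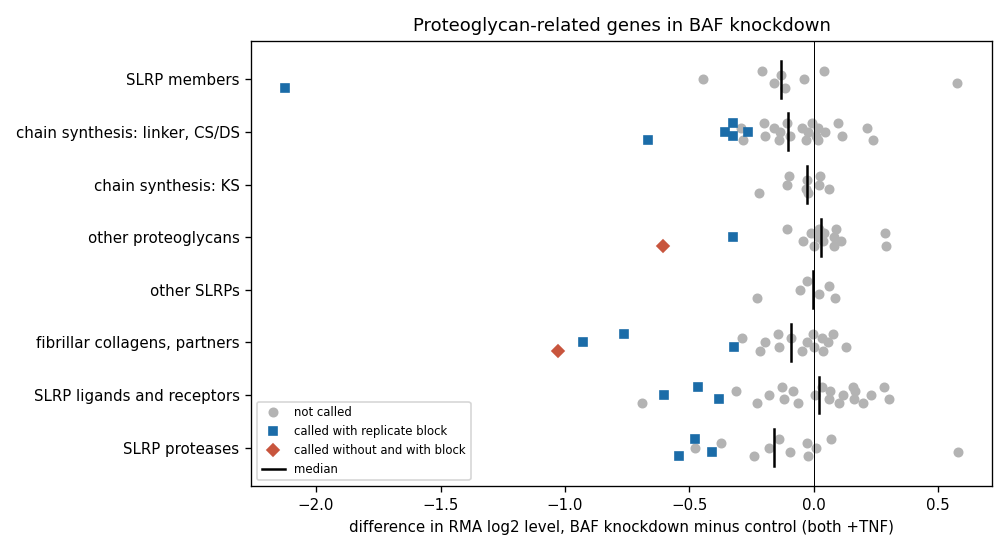
Difference in RMA log2 level, BAF knockdown minus control, both TNF-treated (x axis), for each measured gene of the SLRPs and 7 related lists (y axis; CS/DS is chondroitin or dermatan sulphate and KS keratan sulphate), with points spread vertically for legibility and a bar at each list's median. Dcn is the leftmost point at -2.13, and every gene called with the replicate block lies below 0.

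Cell type markers were read beside these results. Of 10 fibroblast markers, 3 were called lower with the block and 0 without, S100a4 (-1.18, blocked adjusted p = 0.0245), Col3a1, and the growth factor receptor gene Pdgfra (-0.57). With the block, S100a4 and Col3a1 were called without number 2, Col3a1 without number 3, and 0 without number 1. The mean level over the 10 markers ran from 10.73 to 10.93 in BAFkd_st arrays, against 11.03 to 11.30 in control_st and 11.12 to 11.35 in control_ns, so this mean moved in the same direction as Dcn, and its part in the result was not tested. Of 11 cartilage, tendon and bone cell markers 1 was called lower with the block, the alkaline phosphatase gene Alpl (-0.98), which was called without number 2 or 3 but not without number 1, and their mean ran from 7.98 to 8.07 in BAFkd_st, 8.04 to 8.12 in control_st and 8.03 to 8.16 in control_ns. Of 9 leukocyte markers and 10 epithelial and endothelial markers 0 were called in either fit. The leukocyte mean ran from 6.51 to 6.62 in BAFkd_st, 6.48 to 6.57 in control_st and 6.49 to 6.55 in control_ns, and the epithelial and endothelial mean from 6.92 to 7.03, 6.88 to 6.97 and 6.90 to 6.97 in the same groups.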

How the data were processed

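Total RNA of 9 cultures of 3T3 fibroblasts was hybridised by the study's authors to Affymetrix mouse Gene 1.0 ST arrays. The authors deposited log2 signals obtained by RMA (background correction, quantile normalization and median polish over the probes of a transcript cluster), for which the study's reporting summary names the affy package of Bioconductor. Quantile normalization gives all arrays the same distribution, so a change shared by all genes would not show. Of 27024 transcript clusters, 21319 carry 1 gene symbol in the platform annotation, 1430 several and 4275 none. The highest-mean cluster was taken for the 930 genes with several, which left 19698 genes.

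Differences were tested two-sided with limma (version 3.58.1, run in R version 4.3.3; lmFit and eBayes). The fit held 1 mean per group, with all 9 arrays and 6 residual degrees of freedom, and p was adjusted by Benjamini-Hochberg over all genes, with a call below 0.05. In another fit the replicate number was a block. It was treated as pairing the arrays because of correlations between their deviations from the group means. These were 0.21 to 0.724 in the 9 same-numbered pairs, against -0.566 to 0.0111 in the 18 others. Deviations in a group sum to 0, so positive values in the former force negative ones, on average, in the latter. Same-numbered pairs with a knockdown array ran from 0.21 to 0.39. Alternatives were leaving out each array or each number, only the groups compared, array weights, an intensity trend, median centring, leaving out dim genes, the mean of a symbol's rows, and a Student's test of replicate arrays. The study's methods state this test with a minimum difference of 0.35 for TNF induction, and only a difference above 0.3 for BAF, so joining the test to that minimum for the knockdown was done here. The scripts were tested on simulated data. Replicates are described as independent and made on different days.

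The members, the gene lists and the tests by replicate number were chosen with earlier results of these data known. The genes named are the members, the hairpin's targets, up to 4 called genes per list and comparison (or those of largest difference), chromosomal neighbours, and the 6 genes most correlated with Dcn. Promoters were read from RefSeq (GRCm38.p6). For the array annotation, no build was named in what was read.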

Additional observations from a re-analysis of the deposited data

Results flagged for a closer look

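The knockdown difference of Ogn differed between replicate numbers by a test of that interaction over all 9 arrays (limma adjusted p = 0.0415), with values of 0.67, -0.31 and 1.37 on the log2 scale in numbers 1, 2 and 3. The test was added after the values had been seen, and it had 2 residual degrees of freedom. These came from the control arrays alone, since each number had 1 knockdown array, and the spread between knockdown cultures was not measured.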

How the results depend on the processing

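In the knockdown comparison 0 members were called, and 1 (Dcn) was called with the replicate block and 1 (Dcn) by the test of replicate arrays that the methods state for TNF induction, used here with the 0.3 minimum. With the block and without all arrays of number 2, 2 members were called (Dcn and Ogn), and without number 3, 1 (Dcn). Against unstimulated control cells, 1 member (Dcn) was called with the block, 2 (Dcn and Ogn) with the block without number 2, and 1 (Dcn) without number 3. The other alternatives, leaving out each array included, gave 0, as did every alternative for TNF. The block changed no other call of a member. By replicate number over the control arrays, 5 members were called, 2 (Dcn and Omd) over all 9 arrays, 2 (Dcn and Ogn) without dim genes, where 3 members remained to test, and 0 with any 1 array left out. For the interaction of knockdown and number, 1 member (Ogn) was called, 2 (Dcn and Ogn) with median centring and 2 (the same members) without dim genes, and 0 with any 1 control array left out. In each of these left-out fits fewer residual degrees of freedom remained. The numbers of genes called higher and lower in the knockdown comparison, 7 and 20, became 193 and 459 with the block, 2 and 6 with only the groups compared, 19 and 43 with array weights, 15 and 37 without dim genes, and 146 and 287 by that test. With the block and without number 1, 2 or 3, they were 0 and 0, 207 and 441, and 23 and 77. With 1 array left out they ran from 0 to 51 and from 6 to 103, both highest without BAFkd_st array 2. After TNF, 27 and 0 became 72 and 6 with the block, 15 and 0 with only the groups compared, 41 and 0 with array weights, 25 and 0 without dim genes, and 107 and 8 by the methods' test. With 1 array left out they ran from 9 to 27 and from 0 to 1, and with the block without number 1, 2 or 3 they were 0 and 0, 74 and 2, and 18 and 0.

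Differences that turned sign were all of members that were not called, and the cause was not tested. After TNF, array weights gave -0.014 for Dcn, -0.038 for Fmod and -0.0012 for Kera. With the block, leaving out number 3 gave 0.0022 for Bgn, -0.26 for Fmod and 0.020 for Epyc, and leaving out number 2 gave 0.0070 for Ogn. Against unstimulated control cells, the block without number 2 gave 0.025 for Lum and 0.026 for Fmod. With each array left out in turn, TNF differences ran from -0.31 to 0.41 for Dcn, -0.071 to 0.012 for Bgn, -0.40 to 0.55 for Fmod, -0.51 to 0.48 for Ogn, -0.050 to 0.24 for Prelp, -0.34 to 0.24 for Omd, -0.020 to 0.022 for Kera and -0.045 to 0.014 for Epyc. The knockdown difference of Omd ran from -0.27 to 0.13. Against unstimulated control cells they ran from -0.10 to 0.0078 for Lum, -0.85 to 0.11 for Fmod, -0.21 to 0.034 for Prelp, -0.46 to 0.12 for Omd and -4.0e-05 to 0.030 for Epyc.

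With 3 arrays a group and no block, even the knockdown difference of -2.13 in Dcn was not called (limma adjusted p = 0.256). At that spread a call in Dcn needed a larger difference. In Ogn and Fmod the standard errors were 0.51 and 0.43. Their unadjusted knockdown intervals without the block were -0.59 to 1.74 and -1.43 to 0.54. These reached about 1 log2 unit to either side, and the test adjusted over all genes was stricter. Without the block, a call in Ogn or Fmod therefore needed a difference larger than about 1 log2 unit.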
